A study of Rattus norvegicus with 10 samples.

Results

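The genes described here are a stress module of 36 named genes of the endoplasmic reticulum (ER) and of amino acid supply, measured in HSC-2, a hepatic stellate cell line of the Wistar rat. Members were taken from probe sets annotated with 1 gene symbol only, and where a gene had several, from the probe set with the highest mean over the 10 arrays. This gave 35 genes, all of them among the 27520 tested probe sets of 31099 on the array: 16 of the Atf4 branch, 17 of the chaperone branch and the stress sensors Atf6 and Eif2ak3. Ern1, the sensor kinase known as Ire1, has no probe set with that single symbol in the platform annotation used here and was not analysed.

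Total RNA was labelled with biotin for Affymetrix arrays, 1 array per line and passage. The 5 lines were the clones S1, S4 and S5, each a single transfected clone of HSC-2 labelled as overexpressing rat miR-146a, a line carrying a scrambled sequence, and untransfected HSC-2, whose 2 arrays are titled as a second replicate. The series text names the scrambled (GFPscr) and the untransfected line as controls. Passages 43 and 42 of every line were used, and all lines were grown in high-glucose DMEM with 10% fetal bovine serum and antibiotics. Nothing in the labels says that passages came from separate cultures, so p-values that rest on passages reflect the spread of these samples alone, which can be technical. The mature miR-146a was not analysed here.

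Misfolded protein in the ER and shortage of amino acids both activate kinases that phosphorylate the translation factor eIF2, among them Eif2ak3 (PERK), which favours translation of the transcription factor Atf4. Atf4 and its C/EBP partners raise genes of amino acid synthesis and transport, of tRNA charging and, under lasting stress, the death-linked factor Ddit3 (CHOP). The ER membrane protein Atf6 and the spliced form of Xbp1 act on another set, the chaperones, folding enzymes and degradation factors of the ER, which stellate cells use heavily because they secrete collagen.

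The 2 branches are known for different promoter elements, which are shown here because members correlated less between the branches than within them on these arrays. Windows of 250 bases before to 50 after the annotated gene start (RefSeq, GRCr8) were available for 31 of the 36 genes and not for Atf6, Ern1, Pdia3, Pdia6 and Manf. Both strands were searched for the C/EBP-ATF response element CARE (TGATGNAA), the ER stress element ERSE (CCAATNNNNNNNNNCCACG), ERSE-II (ATTGG, 1 base, CCACG) and the unfolded protein response element UPRE (TGACGTGG). ERSE and ERSE-II are built of the same pair of short elements, in a different spacing and orientation, and the second element of ERSE read on the other strand can overlap UPRE. Capitals below mark the matched bases, with up to 15 bases of flank that end before the gene start, each window reads 5′ to 3′ on the gene's strand, and a match on the opposite strand appears as its reverse complement.
Hspa5: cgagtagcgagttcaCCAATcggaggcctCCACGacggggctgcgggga
Xbp1: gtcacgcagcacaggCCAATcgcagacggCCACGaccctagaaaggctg
Dnajc3: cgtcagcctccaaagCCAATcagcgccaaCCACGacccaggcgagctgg
Canx: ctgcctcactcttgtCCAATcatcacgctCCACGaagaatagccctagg
Creld2: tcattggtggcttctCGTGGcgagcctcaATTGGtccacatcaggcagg
Calr: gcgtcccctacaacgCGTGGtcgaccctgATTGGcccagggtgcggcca
Trib3: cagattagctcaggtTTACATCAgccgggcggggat
Chac1: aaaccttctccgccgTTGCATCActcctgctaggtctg
Nupr1: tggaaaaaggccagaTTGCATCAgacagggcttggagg

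The 6 chaperone windows hold ERSE. They lie at chr3:38452958-38453006 on the plus strand for Hspa5, chr14:84604543-84604591 on the plus strand for Xbp1 and chr15:102432519-102432567 on the plus strand for Dnajc3. Canx has its window at chr10:35158054-35158102 on the minus strand, Creld2 at chr7:121789224-121789272 on the plus strand and Calr at chr19:40213120-40213168 on the plus strand. The 3 Atf4-branch windows hold CARE, at chr3:161275534-161275569 on the minus strand for Trib3, chr3:126795949-126795986 on the plus strand for Chac1 and chr1:190645934-190645971 on the minus strand for Nupr1. All 9 windows lie upstream of the annotated gene start. ERSE was in 7 of 14 chaperone-branch promoters (the 6 shown and Hsp90b1, with 2 copies), in 0 of 16 Atf4-branch promoters and in 22 of 33469 promoters in all, 0.0657%. ERSE-II was in 1 of the 14, that of Herpud1, and in 17 of all, 0.0508%. CARE was in 3 of 16 Atf4-branch promoters, in 1 of 14 chaperone-branch promoters (Herpud1) and in 3.98% of all. UPRE was in 0 of the 31 and in 0.595% of all. A match is a description of the letters in these windows only.

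**Figure D1:**
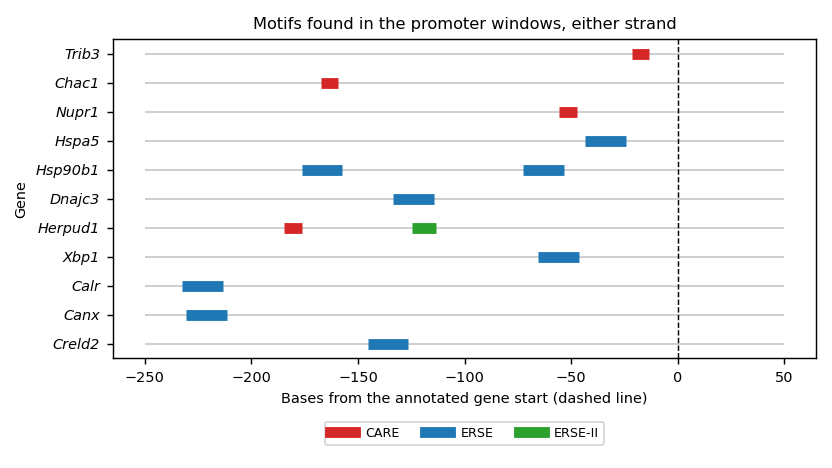
Positions of CARE (red), ERSE (blue) and ERSE-II (green) in the promoters of the 11 genes with a match, in bases from the annotated gene start (dashed line). ERSE matches lie in chaperone-branch promoters, and Herpud1 holds both a CARE and an ERSE-II match.

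Before the comparisons, the arrays themselves: array medians lay between 97.7 and 103.7 intensity units, on a linear scale with a floor at 20. No member was near this floor, the lowest value being 165 units, for Eif2ak3 on the untransfected passage 43 array. The members therefore lay above the array medians, and the values given for all tested probe sets here and below are not matched for intensity. The change between passages was wider in the control lines over all 27520 probe sets, with an SD of log2 changes of 0.256, 0.265 and 0.268 in S1, S4 and S5, against 0.321 in the scrambled and 0.375 in the untransfected line. The number of probe sets that moved by over 1 log2 unit between passages was 147, 168 and 148 in S1, S4 and S5, against 325 in the scrambled and 548 in the untransfected line. Of 15 stellate and myofibroblast markers, the fibrillar collagen gene Col1a1 and Vim were at 17936 to 24794 units on all arrays, Lrat, the retinol-esterifying enzyme, was at the floor on all 10, and Gfap and Reln stayed under 42 units. The activation marker Acta2 lay between 4682 and 6834 units on the clone arrays, against 1124 to 9626 on the control arrays, and Tagln between 10130 and 18208 units, against 3588 to 17535. Thy1 lay between 85.6 and 439.9 units on the clone arrays, against 3346 to 5740 on the control arrays, and the part of these markers in the differences below was not tested. The summed level of these 15 markers ranged from 111711 to 118519 units on the clone arrays, against 96084 to 137189 on the control arrays. Among markers of other liver cells, Alb stayed under 39 units, Pecam1 under 30 and Ptprc under 22, and Epcam and Cps1 were at the floor. Others in the same lists were well above it. Spp1 lay between 1553 and 4718 units on clone arrays, against 1329 to 3233 on control arrays, and Cd14 between 549 and 716 on clone arrays, against 452 to 634 on control arrays. Eng lay between 394 and 453 units on clone arrays, against 373 to 561 on control arrays, and Ttr and Tek stayed between 99.8 and 207 units on all arrays.

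Within the module, pairs of members from one branch correlated more over the 10 arrays than pairs from different branches. The median correlation of log2 values was 0.451 over 120 pairs within the Atf4 branch and 0.525 over 136 pairs within the chaperone branch, against -0.156 over 272 pairs between branches. A correlation over 0.5 was reached by 45% of pairs within the Atf4 branch, 51.5% within the chaperone branch and 8.46% between branches. This is a description over 10 arrays that share 5 lines, and pairs of all tested probe sets were not computed. The module was steadier on the clone arrays: the log2 range over the 6 clone arrays had a median of 0.35 in the Atf4 branch and 0.22 in the chaperone branch, against 1.03 and 0.52 over the 4 control arrays. The range was wider over the control arrays for 16 of 16 Atf4-branch genes and 16 of 17 chaperone-branch genes, the exception being Pdia3, against 66.6% of all tested probe sets.

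**Figure D2:**
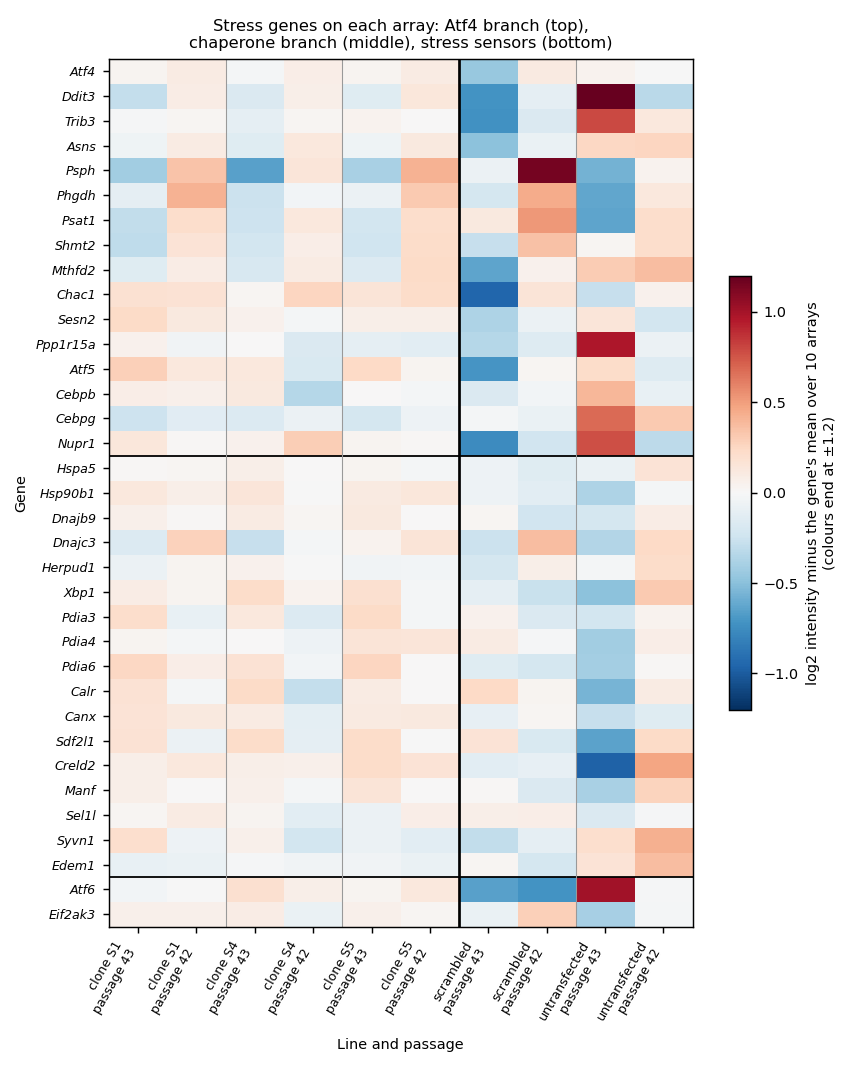
Each row is 1 of the 35 genes and each column 1 array, clones left and control lines right; colour is log2 intensity minus the gene's mean over the 10 arrays. The strongest colours are on the control arrays. In the scrambled line the Atf4 branch is blue at passage 43 and Psph is red at passage 42. In the untransfected line at passage 43, several Atf4-branch genes and Atf6 are red and the chaperone branch is blue.

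The first question was whether the miR-146a clones differ from the control lines in this module. Against both control lines together, on 5 line means, 0 of 35 genes passed an adjusted p under 0.05, where 0.898% of all tested probe sets did. At an unadjusted p under 0.05 there were 5 genes, all with a positive difference (Pdia6, Chac1, Creld2, Hsp90b1 and Xbp1). The share of all tested probe sets at that unadjusted cut was not counted, here or below, so these counts have no background beside them. The median log2 difference was -0.02 in the Atf4 branch and 0.12 in the chaperone branch, against -0.01 over all tested probe sets.

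In the chaperone branch the smallest p belonged to Pdia6, a disulfide isomerase, with log2 levels of 13.00 ± 0.05 in the clones (SD, n = 3) and 12.70 ± 0.01 in the control lines (SD, n = 2), a difference of 0.31 (SE 0.06, limma adjusted p = 0.126). Creld2, a disulfide isomerase-like protein induced by ER stress, differed by 0.30 (SE 0.08, adjusted p = 0.192). Hsp90b1, the ER chaperone GRP94, differed by 0.24 (SE 0.07, adjusted p = 0.206). Hsp90b1 was at 6587, 6669 and 6479 units at passage 43 and 6350, 5993 and 6607 units at passage 42 in S1, S4 and S5, against 5776 and 5539 units in the scrambled and 4672 and 5936 units in the untransfected line at passages 43 and 42. All 6 clone arrays stood above all 4 control arrays, by a narrow margin, and Hsp90b1 was 1 of 35 genes with such a separation, where 4.06% of all tested probe sets had one. All clone arrays stood below all control arrays for 0 of 35 genes, where 3.44% of all tested probe sets did. In bulk RNA, fewer cells with a transcript and less of it per cell cannot be told apart. In the Atf4 branch the smallest p belonged to Chac1, which degrades glutathione, with a difference of 0.43 (SE 0.10, adjusted p = 0.165), then Sesn2, a stress-induced inhibitor of mTORC1 signalling, with 0.21 (SE 0.09, adjusted p = 0.363), and Cebpg, a dimer partner of Atf4, with -0.37 (SE 0.17, adjusted p = 0.385). The sensors differed by 0.16 (Atf6, SE 0.35) and 0.09 (Eif2ak3, SE 0.11).

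The count changed with the control line used. Without the scrambled line, 6 of 35 genes were called, all lower in the clones (Ddit3, Trib3, Mthfd2, Ppp1r15a, Cebpg and Edem1), where 10.8% of all tested probe sets were called. Without the untransfected line, 4 of 35 were called, all higher in the clones (Trib3, Chac1, Nupr1 and Atf6), where 6.15% of all tested probe sets were called. The clones were therefore set against each control line separately, on 10 arrays, and both comparisons use the same clone arrays.

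Against the scrambled line, which shares the transfection, 0 of 35 genes passed, where 6.9% of all tested probe sets did, and 3 had an unadjusted p under 0.05. The median difference was 0.25 in the Atf4 branch and 0.12 in the chaperone branch, against 0.00 over all tested probe sets. On 9 of 35 genes all clone arrays stood above both scrambled arrays, where 13.1% of all tested probe sets did, and on 0 of 35 below, where 12.2% did. The 9 were the Atf4-branch genes Trib3, Sesn2 and Nupr1, the chaperone-branch genes Hspa5, Hsp90b1, Xbp1, Pdia6 and Creld2, and Atf6.

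Atf6, the membrane-bound transcription factor that is cleaved under ER stress, had the largest difference, 0.74 (SE 0.22, adjusted p = 0.103). Sesn2 differed by 0.30 (SE 0.12, adjusted p = 0.222), Trib3, a pseudokinase induced by Atf4 and Ddit3, by 0.45 (SE 0.19, adjusted p = 0.244) and Asns, asparagine synthetase, by 0.30 (SE 0.13, adjusted p = 0.257). In the chaperone branch, Pdia6 differed by 0.30 (SE 0.13, adjusted p = 0.273), Hsp90b1 by 0.19 (SE 0.10, adjusted p = 0.386) and Xbp1 by 0.28 (SE 0.19, adjusted p = 0.489). Single arrays moved the count: Atf6 was called without either untransfected array, where 7.65% of all tested probe sets were, and Atf4 and Chac1 without the scrambled passage 42 array, where 4.15% were. With passage entered as a replicate block 1 gene was called, Psph, the phosphatase that completes serine synthesis, which was lower in the clones, where 11.5% of all tested probe sets were called.

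Against the untransfected line 1 of 35 genes passed, where 8.63% of all tested probe sets did, 4.51% lower in the clones. This was Cebpg, lower in the clones by a log2 difference of -0.65 (SE 0.11, adjusted p = 0.0136). Cebpg was at 758, 804 and 778 units at passage 43 and 821, 861 and 863 units at passage 42 in S1, S4 and S5, against 1446 and 1119 units in the untransfected line. The untransfected values stood above all clone values, while the scrambled line, with 889 and 855 units, lay among or just above the clones. The second Cebpg probe set gave -0.27 (adjusted p = 0.485), and without the untransfected passage 43 array 0 genes were called, where 2.2% of all tested probe sets were.

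In the chaperone branch, Edem1, which directs misfolded glycoproteins to degradation, differed from the untransfected line by -0.33 (SE 0.09, adjusted p = 0.0729). Canx, the lectin chaperone calnexin, differed by 0.29 (SE 0.09, adjusted p = 0.0937) and Syvn1, the ubiquitin ligase of ER-associated degradation, by -0.35 (SE 0.12, adjusted p = 0.122). The largest-variance probe set of Canx was called, at 0.73 (adjusted p = 0.0058). Of the sensors, Atf6 differed by -0.43 (SE 0.22, adjusted p = 0.291) and Eif2ak3 by 0.25 (SE 0.13, adjusted p = 0.307). The median difference was -0.15 in the Atf4 branch and 0.14 in the chaperone branch. Without the untransfected passage 42 array, 8 genes were called: Ddit3, Ppp1r15a, Cebpg and Atf6 lower in the clones, and Hsp90b1, Xbp1, Pdia4 and Creld2 higher. In that setting 12.3% of all tested probe sets were called. All clone arrays stood above both untransfected arrays on 2 of 35 genes (Hsp90b1 and Canx), where 12.3% of all tested probe sets did, and below on 6 (Trib3, Asns, Mthfd2, Cebpg, Syvn1 and Edem1), where 13.7% did.

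**Figure D3:**
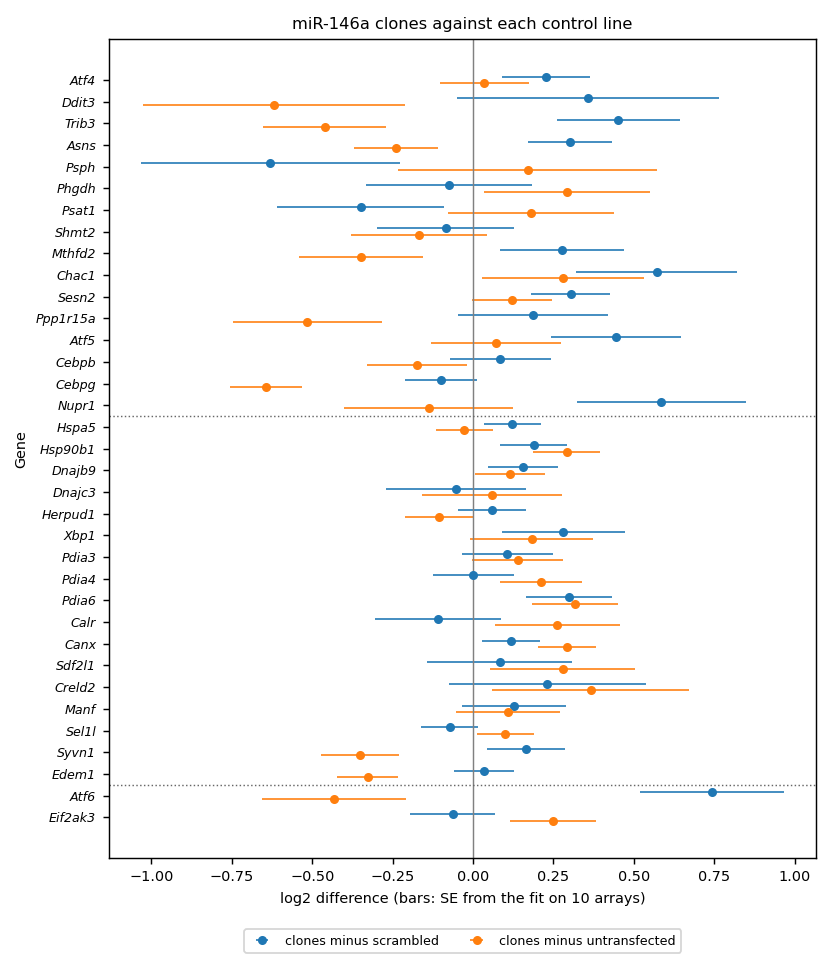
Log2 difference of the clones from the scrambled line (blue) and from the untransfected line (orange) for each gene, with the SE of the fit on 10 arrays. Several Atf4-branch genes and Atf6 lie right of 0 against the scrambled line and left of 0 against the untransfected line, while Pdia6 and Hsp90b1 lie right of 0 against both.

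The control lines were also compared with each other. In the scrambled line 1 of 35 genes differed from the untransfected line, where 6.1% of all tested probe sets did, 3.87% lower in the scrambled line, and 8 had an unadjusted p under 0.05. Atf6 was lower in the scrambled line, at 1565 and 1495 units at passages 43 and 42, against 4930 and 2423 units in the untransfected line, a log2 difference of -1.18 (SE 0.27, adjusted p = 0.0480). The clones lay between 2396 and 2798 units, above both scrambled values and close to the untransfected passage 42 value. The second Atf6 probe set gave -0.53 (adjusted p = 0.316), and the call was lost without either scrambled array and without any 1 clone array.

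In the Atf4 branch, the scrambled line differed from the untransfected line by -0.54 for Cebpg (SE 0.14, adjusted p = 0.0595), -0.91 for Trib3 (SE 0.24, adjusted p = 0.0638) and -0.54 for Asns (SE 0.16, adjusted p = 0.0942). In the chaperone branch, Syvn1 differed by -0.52 (SE 0.15, adjusted p = 0.0849), Edem1 by -0.36 (SE 0.11, adjusted p = 0.113) and Sel1l, the partner of Syvn1 in the degradation complex, by 0.17 (SE 0.11, adjusted p = 0.398). The median difference was -0.33 in the Atf4 branch and 0.03 in the chaperone branch. With passage entered as a replicate block 7 genes were called: Trib3, Asns, Mthfd2, Cebpg and Atf6 lower in the scrambled line, and the serine synthesis genes Psph and Psat1 higher, where 13.1% of all tested probe sets were called. Without the untransfected passage 42 array 8 were called, where 11.7% of all tested probe sets were, and without the untransfected passage 43 array 2, where 2.22% were, Atf6 among them both times. Both scrambled arrays stood below both untransfected arrays on 8 of 35 genes, where 23.1% of all tested probe sets did, and above on 2, where 21.8% did.

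Differences between the 3 clones were small in this module. An F test called 0 of 35 genes, where 0.0327% of all tested probe sets were called, and 0 had an unadjusted p under 0.05. The widest range of clone means was 0.30 log2 units, for Phgdh, the first enzyme of serine synthesis, and the median range was 0.09 over the members, against 0.14 over all tested probe sets.

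Of the main fits, the one between passages called the most members, but these fits differ in design. With passage entered as a replicate block, the comparison between the control lines called more. At passage 43, with line as a block, 5 of 35 genes were lower than at passage 42 and 0 were higher, where 5.52% of all tested probe sets were called, 3.09% lower and 2.43% higher. The 4 in the Atf4 branch were Psph, Psat1, Phgdh and Shmt2, which are the 3 enzymes that make serine from a glycolytic intermediate and the mitochondrial enzyme that splits serine into glycine and a one-carbon unit. The 1 in the chaperone branch was Dnajc3 (p58IPK), an ER co-chaperone that also inhibits eIF2 kinases. The remaining 16 chaperone-branch genes and 12 Atf4-branch genes were not called. Passage cannot be told apart here from any processing step shared by the arrays of the same passage. Of the stellate markers, the matrix proteoglycan genes Lum and Dcn moved with passage too, higher at passage 43 by 1.58 (adjusted p = 0.0141) and 2.04 (adjusted p = 0.0141), and their part in the passage calls was not tested.

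Psph was at 650, 554, 663, 827 and 587 units at passage 43 in S1, S4, S5, the scrambled and the untransfected line, against 1101, 959, 1158, 1923 and 893 units at passage 42 in the same lines. Every passage 43 array was below every passage 42 array, and the log2 difference was -0.84 (SE 0.09, adjusted p = 0.0102). Psat1, the aminotransferase between Phgdh and Psph, was at 3430, 3550, 3617, 4554 and 2705 units at passage 43 in that order of lines, against 4862, 4608, 4880, 6023 and 4871 units at passage 42. It too had no overlap between passages, with a difference of -0.51 (SE 0.08, adjusted p = 0.0204).

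Phgdh was at 3460, 3111, 3530, 3221 and 2408 units at passage 43 in S1, S4, S5, the scrambled and the untransfected line, against 4956, 3639, 4607, 5047 and 4069 units at passage 42. The difference was -0.51 (SE 0.09, adjusted p = 0.0238), again with every passage 43 array below every passage 42 array. Shmt2 was at 1872, 1980, 1962, 1905 and 2344 units at passage 43 in the same order, against 2600, 2441, 2687, 2944 and 2685 units at passage 42. Its difference was -0.41 (SE 0.08, adjusted p = 0.0287), the passages did not overlap, and the untransfected line had the smallest step.

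Dnajc3 was at 1188, 1096, 1368, 1114 and 1045 units at passage 43 in that order of lines, against 1618, 1310, 1485, 1717 and 1568 units at passage 42. It was lower in all 5 lines, by -0.41 (SE 0.09, adjusted p = 0.0451), but the passages overlapped, because S5 at passage 43 was above S4 at passage 42. Mthfd2, the mitochondrial folate enzyme downstream of Shmt2, had a difference of -0.33 (adjusted p = 0.0861). It was also lower at passage 43 in all 5 lines, as was Asns, which was not called (adjusted p = 0.158). In the untransfected line Mthfd2 and Asns barely moved, at 0.957-fold and 0.996-fold of passage 42. Lower in all 5 lines were 6 of 16 Atf4-branch and 1 of 17 chaperone-branch genes, where 11% of all tested probe sets were. None of the 35 was higher in all 5 lines, where 9.57% of all tested probe sets were. The sensors differed by 0.22 (Atf6, adjusted p = 0.496) and -0.11 (Eif2ak3, adjusted p = 0.599). Probe sets of 2 genes disagreed between passages: another probe set of Sesn2 was called at -0.49 (adjusted p = 0.0422), where the one used gave 0.05, and another of Canx at 0.33 (adjusted p = 0.0396), where the one used gave 0.00.

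**Figure D4:**
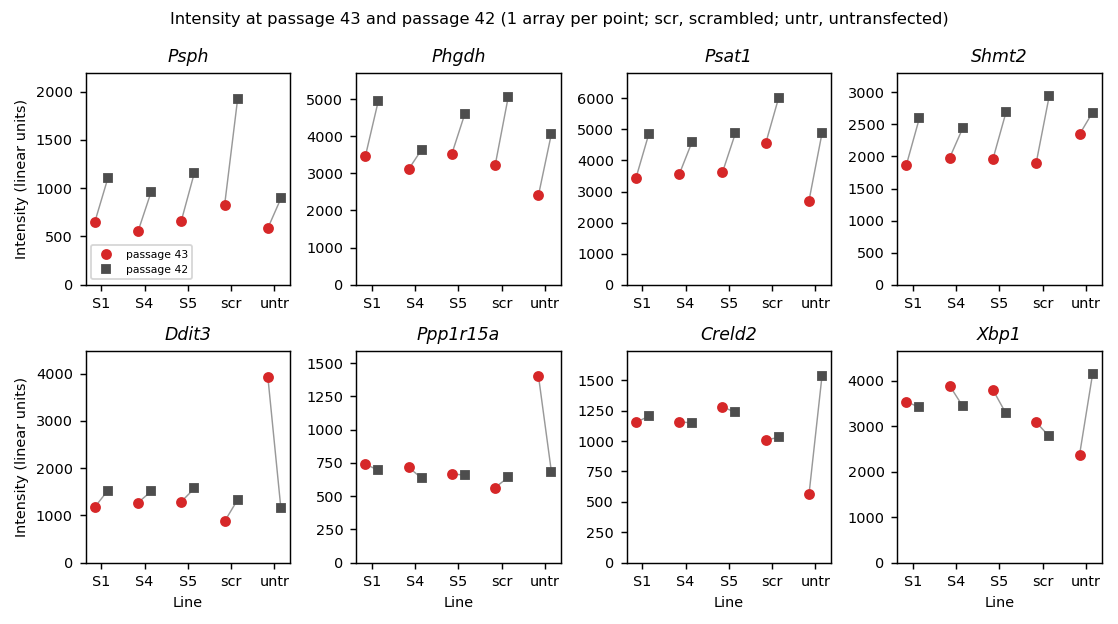
Intensity (linear units) of 8 genes at passage 43 (red circles) and passage 42 (grey squares) in each line, 1 array per point. The serine enzymes Psph, Phgdh and Psat1 and the serine-splitting enzyme Shmt2 were lower at passage 43 in every line, while Ddit3, Ppp1r15a, Creld2 and Xbp1 had their widest steps in the untransfected line.

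The passage calls changed with the lines kept. Without any 1 clone line or clone array 0 of the 35 genes, and 0 of the 27520 probe sets, were called. Without the scrambled line, or either of its arrays, 1 was called, Psph, where 2.84% of all tested probe sets were. Without the untransfected line 6 were called, with Pdia3 and Sdf2l1 added as higher and Dnajc3 lost, where 6.17% of all tested probe sets were called. On the clone arrays alone, an alternative chosen after the data were seen, Psph and Psat1 were called, where 3.4% of all tested probe sets were. Without the line as a replicate block 0 were called, where 0.567% of all tested probe sets were.

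No gene passed the test for a passage change that differed between the clones and the control lines (0 of 35, where 0.0182% of all tested probe sets were called, and 4 had an unadjusted p under 0.05). The smallest p in each group belonged to Eif2ak3, with a passage change 0.44 log2 units higher in the clones (SE 0.12, adjusted p = 0.461), Syvn1 with 0.40 (SE 0.13, adjusted p = 0.508) and Chac1 with 0.62 (SE 0.24, adjusted p = 0.572). Next came Cebpg with -0.33 (SE 0.14, adjusted p = 0.591) and Phgdh with 0.33 (SE 0.14, adjusted p = 0.601) in the Atf4 branch, and Dnajc3 with 0.33 (SE 0.14, adjusted p = 0.602) and Pdia6 with 0.39 (SE 0.17, adjusted p = 0.611) in the chaperone branch. The median was 0.31 in the chaperone branch, 0.02 in the Atf4 branch and 0.00 over all tested probe sets. All 3 clone changes were above both control changes on 9 of 35 genes, where 13.5% of all tested probe sets were, and below on 1, where 11% were. Without the untransfected line the median of the chaperone branch was 0.00.

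By single line, the branches went different ways in the 2 control lines. These are differences between 1 array and 1 array, with no test. In the untransfected line, 17 of 17 chaperone-branch genes were lower at passage 43, where 48.8% of all tested probe sets were, with a median log2 change of -0.35 and a range of -1.45 to -0.14. In the other lines more chaperone-branch genes were higher than lower at passage 43: 11 of 17 in S1, 16 in S4, 12 in S5 and 11 in the scrambled line, where 47.6%, 48.1%, 48.7% and 46.3% of all tested probe sets were higher.

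Creld2 had the largest range in the chaperone branch. It was at 1154, 1159, 1283, 1009 and 562 units at passage 43 in S1, S4, S5, the scrambled and the untransfected line, against 1205, 1150, 1236, 1031 and 1535 units at passage 42. The untransfected line had both the highest and the lowest of the 10 values, and the other 8 lay close together. Xbp1, whose spliced product drives chaperone genes, was at 3540, 3890, 3799, 3085 and 2369 units at passage 43 in the same order, against 3415, 3440, 3280, 2775 and 4141 units at passage 42. Sdf2l1, an ER chaperone cofactor, was 0.55-fold of its passage 42 value in the untransfected line, but 1.18-fold, 1.26-fold, 1.16-fold and 1.27-fold in S1, S4, S5 and the scrambled line. Hspa5 (BiP), the main ER chaperone, was steadier, at 0.84-fold in the untransfected line and 0.99-fold to 1.05-fold in the others. Over the branch, the untransfected passage 43 array was the lowest of the 10 for 12 of 17 genes and the untransfected passage 42 array the highest for 8. These counts were not made over all tested probe sets, where the untransfected line also had the widest passage changes (SD 0.375).

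In the Atf4 branch, 15 of 16 genes were lower at passage 43 in the scrambled line, where 51% of all tested probe sets were, with a median log2 change of -0.56, and Cebpg was the exception. In S1, S4 and S5, 10, 12 and 10 of the 16 were lower, where 49.7%, 49.4% and 48.8% of all tested probe sets were. In the untransfected line 7 were lower and 9 higher, where 48.8% and 49.1% of all tested probe sets were, with a median of 0.21. The 7 lower ones include the 3 serine synthesis enzymes and Shmt2, and the higher ones include Ddit3, Ppp1r15a and Nupr1.

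Ddit3 had the largest range in the branch. It was at 1176, 1270, 1292, 874 and 3922 units at passage 43 in S1, S4, S5, the scrambled and the untransfected line, against 1526, 1508, 1570, 1330 and 1148 units at passage 42. The untransfected passage 43 array was 3.42-fold of passage 42, while the other 4 lines were at 0.66-fold to 0.84-fold. Ppp1r15a (GADD34), the phosphatase subunit that reverses eIF2 phosphorylation, was 2.06-fold of passage 42 in the untransfected line, and 1.07-fold, 1.13-fold, 1.01-fold and 0.88-fold in S1, S4, S5 and the scrambled line. Nupr1, a small stress-induced chromatin protein, was 2.12-fold in the untransfected line and 0.70-fold in the scrambled line. Chac1 was 0.47-fold and Atf5, a transcription factor related to Atf4, was 0.60-fold in the scrambled line. The scrambled passage 43 array was the lowest of the 10 for 10 of 16 genes, and the untransfected passage 43 array the highest for 6. As in the chaperone branch, these counts were not made over all tested probe sets. Of the sensors, Atf6 was at 2.04-fold in the untransfected line and Eif2ak3 at 0.77-fold, opposite directions on the same pair of arrays.

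**Figure D5:**
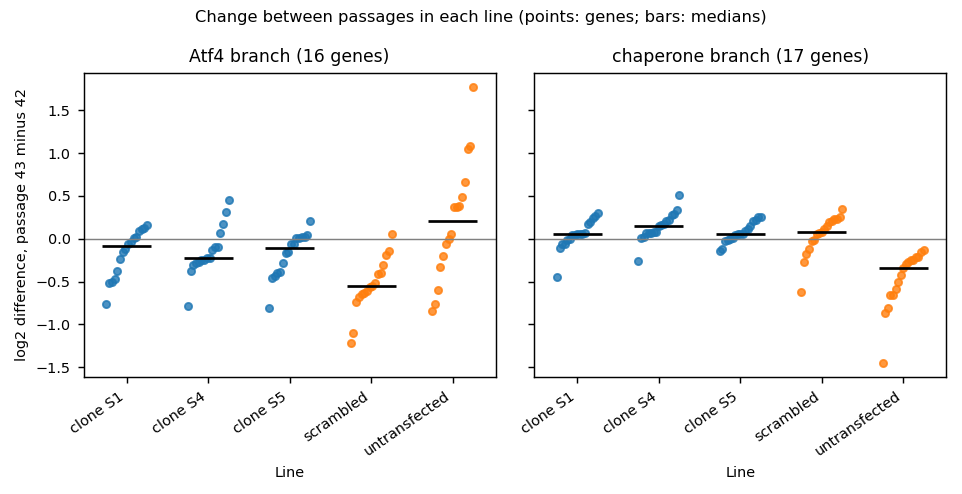
Log2 intensity at passage 43 minus passage 42 in each line for the 16 Atf4-branch genes (left) and the 17 chaperone-branch genes (right); points are genes and bars medians. The chaperone branch lies wholly below 0 in the untransfected line, and the Atf4 branch lies almost wholly below 0 in the scrambled line.

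Other genes of the same pathways were counted from lists that do not hold the members. Of 37 other genes of the Atf4 program (amino acid transporters, tRNA synthetases, and metabolic genes and regulators), 8 (21.6%) were lower at passage 43 and 0 higher, where 3.09% and 2.43% of all tested probe sets were, with a median of -0.15. Among transporters, Slc7a11, which imports cystine, differed by -0.74 (SE 0.05, adjusted p = 0.00938), the leucine transporter Slc7a5 by -0.61 (SE 0.12, adjusted p = 0.0351) and the glutamine transporter Slc1a5 by -0.39 (SE 0.08, adjusted p = 0.0407). Of the 9 transporters, 7 had a negative difference between passages and 2 a positive one. Slc38a2 went up without being called, at 1.64-fold, 1.51-fold, 1.53-fold and 1.31-fold of passage 42 in S1, S4, S5 and the scrambled line. In the untransfected line Slc38a2 was at 0.97-fold. The tRNA synthetases Tars1, Cars1 and Gars1 differed by -0.39, -0.37 and -0.34 (adjusted p = 0.0169, 0.0271 and 0.0468). In the untransfected line, 6 of the 12 tRNA synthetases were lower at passage 43, these among them, and 6 were higher. All tested probe sets were lower there in 48.8% and higher in 49.1%. Slc7a5 and Slc1a5 barely moved in that line, at 0.9515-fold and 0.9459-fold of passage 42. Cth, which makes cysteine, differed by -0.58 (adjusted p = 0.0279) and Pck2, mitochondrial PEP carboxykinase, by -0.33 (adjusted p = 0.0311). Of 5 other eIF2 kinases, subunits and phosphatase genes, Eif2s1, which encodes the phosphorylated subunit of eIF2, differed by -0.25 (adjusted p = 0.0496). Of 32 other ER folding and degradation genes and 15 ER translocation genes, 0 were called between passages, and 9 and 3 had an unadjusted p under 0.05.

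Against the untransfected line, 4 of the 37 (10.8%) were lower and 1 higher in the clones, where 4.51% and 4.12% of all tested probe sets were, and 5 of the 37 (13.5%) were lower and 0 higher in the scrambled line, where 3.87% and 2.23% were. The stress-induced transcription factor Atf3 was at 85.3, 78.5 and 62.0 units at passage 43 and 75.9, 108.6 and 101.7 units at passage 42 in S1, S4 and S5, and at 76.1 and 62.1 units in the scrambled line, against 575.5 and 217.0 units in the untransfected line. Gdf15, a secreted stress cytokine, was at 557.8 and 199.3 units in the untransfected line at passages 43 and 42, and between 68.8 and 101.2 units on the other 8 arrays. In both genes the untransfected arrays stood above all others, with passage 43 the higher. Against the untransfected line, the clones differed by -2.07 for Atf3 (SE 0.35, adjusted p = 0.0127) and -1.96 for Gdf15 (SE 0.33, adjusted p = 0.0124), and the scrambled line by -2.36 (SE 0.43, adjusted p = 0.0211) and -2.13 (SE 0.41, adjusted p = 0.0249). Slc7a11 was lower than in the untransfected line by -1.76 in the clones (adjusted p = 0.0220) and -1.82 in the scrambled line (adjusted p = 0.0480), and the glycine transporter Slc6a9 by -1.36 in the clones (adjusted p = 0.000851) and -1.07 in the scrambled line (adjusted p = 0.00821). Jdp2, a repressor related to Atf3, was higher in the clones than in the untransfected line by 0.64 (adjusted p = 0.0354).

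Against both control lines, 1 of the 37 passed, where 0.898% of all tested probe sets did. Slc38a2, a neutral amino acid transporter, was higher in the clones by 0.58 (SE 0.07, adjusted p = 0.0488). Slc38a2 was at 7783, 7243 and 7080 units at passage 43 in S1, S4 and S5, against 4680 units in the scrambled and 3757 units in the untransfected line at that passage. At passage 42 it was at 4756, 4791 and 4615 units in the clones, against 3561 and 3870 units in the scrambled and the untransfected line, so the scrambled passage 43 array overlapped the clones. Without the S1 or the S5 line 0 of 27520 probe sets were called in this comparison, and without the S4 line 2 were, so the call of Slc38a2 was lost without S1 or S5. Against the scrambled line, Vldlr, a lipoprotein receptor induced through Atf4, was higher in the clones by 1.44 (adjusted p = 0.00130), the aminotransferase Gpt2 was higher by 0.48 (adjusted p = 0.0388) and the arginine transporter Slc7a3 was lower by -0.76 (adjusted p = 0.00547). Slc7a3 was low on all arrays, with every value below the lowest array median of 97.74 units, so its call rests on weak signals. It lay between 32.92 and 41.55 units in the clones. The scrambled line was at 70.66 and 58.02 units and the untransfected line at 41.65 and 48.29 units at passages 43 and 42. In the scrambled line, Vldlr was lower than in the untransfected line by -1.83 (adjusted p = 0.00185).

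Of the 47 other ER genes, Selenos, a membrane protein of ER-associated degradation, was higher in the clones than in the scrambled line by 0.38 (adjusted p = 0.0402). Ero1b, the oxidase that recharges disulfide isomerases, was lower in the scrambled than in the untransfected line by -1.03 (adjusted p = 0.0399). Among heat shock genes outside the ER, the small heat shock gene Hspb8 was lower in the clones than in both control lines by -1.16 (SE 0.12, adjusted p = 0.0381), and Cryab, another small heat shock gene, was higher by 0.83 (SE 0.07, adjusted p = 0.0265). Hspb8 lay between 1414 and 1950 units on the 6 clone arrays, against 3111 to 4018 units on the 4 control arrays, with no overlap. Cryab lay between 5429 and 6573 units on the clone arrays, against 2319 to 4878 units on the control arrays, also with no overlap. Without the S1 or the S5 line both calls against the control lines were lost, as 0 of 27520 probe sets were then called. Against the untransfected line, Dnaja1, a cytosolic co-chaperone, was higher in the clones by 0.39 (adjusted p = 0.0377).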

How the data were processed

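Total RNA of 10 HSC-2 samples (5 lines at passages 43 and 42) was measured on Affymetrix arrays. The authors deposited linear intensities made with RMA, as the submitters' processing notes name it. The RMA version is not given in the sources used here, nor is the step back to a linear scale. The deposited intensity has a floor of 20, which held 14.6% of values. The tests were planned for log2 values, and the deposited intensities were put on the log2 scale first. Of 31099 probe sets, 57 controls and 3522 that held only floor values were not tested. All per-sample columns were used.

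limma 3.58.1 (R 4.3.3; lmFit, eBayes, Benjamini-Hochberg over 27520 probe sets, adjusted p under 0.05) compared the clones with both control lines on 5 line means (3 residual degrees of freedom) and single lines on 10 arrays (5 residual degrees of freedom). The passage test had line as a block (4 residual degrees of freedom), and the change between passages was compared on 5 line differences. The procedure was run on simulated data with independent noise on each array. Deviations shared by the arrays of a passage were not simulated, so that run does not cover them. Same-numbered passages deviated together in every pair of lines (correlation of deviations 0.136 to 0.648 over 10 pairs of lines), so the passage number pairs the samples. The tests of single lines were planned without passage in the fit and do not use this pairing. Passage was entered there as an alternative. The number of arrays limits the precision.

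Full statistics go to members past the threshold, or to the 3 of smallest p in each branch. Genes of other lists are named up to 4 per list and comparison. The members and lists were chosen with earlier results of these data known. Alternatives were quantile normalisation, a pseudocount, probe sets above the floor only, another probe set per gene, a trended robust prior, replicate and random blocks, and leaving out arrays or lines.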

Additional observations from a re-analysis of the deposited data

Results flagged for a closer look

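In 4 of 70 groups tested (the 6 clone arrays or the 4 control arrays of each gene), 1 array stood far from the others by Dixon's test, which flags about 1 in 20 groups by chance. All 4 were on clone S4 and were the lowest of the clone arrays, in log2 units. At passage 43, Trib3 was at 11.30, with the other clone arrays at 11.39 to 11.45. At passage 42, Cebpb was at 10.50 (others 10.82 to 10.96), Canx at 11.77 (others 12.00 to 12.06) and Eif2ak3 at 7.69 (others 7.79 to 7.86).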

How the results depend on the processing

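The members called against the scrambled line numbered 1 with passage entered as a replicate block and 0 to 2 when arrays were left out. Against both controls they numbered 0 to 6 with arrays or lines left out. Against the untransfected line they numbered 2 with the largest-variance probe set and 0 to 8 with arrays left out. Between the control lines they numbered 0 after quantile normalisation, 0 with a pseudocount of 32, 2 with probe sets above the floor only, 2 with the largest-variance probe set, 7 with the replicate block and 0 to 8 with arrays left out. Between passages they numbered 0 with no replicate block, 2 on the clone arrays alone and 0 to 6 with arrays or lines left out. The block changed no other count of members. Over all probe sets, calls against both controls numbered 247, but 163 with the pseudocount 1315 with line as a random block, 77 to 334 without single arrays, 0, 2 and 0 without the S1, S4 or S5 line, 2968 without the scrambled line and 1693 without the untransfected line. The replicate block gave 3155 calls against the scrambled line (1900 without it), 4136 against the untransfected line (2374) and 3602 between the control lines (1679), and passages gave 156 calls with no block (1520 with it). Some log2 differences changed sign. Against both controls, left-out arrays or lines gave -0.43 to 0.74 for Atf6, -0.0638 to 0.66 for Creld2 and -0.0636 to 0.25 for Eif2ak3. Against the scrambled line, left-out arrays gave -0.24 to 0.12 for Eif2ak3, which gave 0.0686 between passages on the clone arrays alone. Against the untransfected line they gave -0.95 to 0.0797 for Atf6, and Edem1 gave 0.12 between the control lines with the largest-variance probe set. The cause of these changes was not tested. Of the single-gene values, 773 kept direction and side of the threshold, 79 lost the call, 13 gained it and 9 reversed. With 2 arrays per line, the number of arrays limits what can be called.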
